A study of Homo sapiens with 9 samples.

Results

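The genes described here encode enzymes that make serine, proline and asparagine and that carry serine-derived carbon into the folate pathway. They were named by function, as 10 genes: PHGDH, PSAT1 and PSPH for serine, SHMT1, SHMT2, MTHFD2 and MTHFD1L for the folate steps, PYCR1 and ALDH18A1 for proline, and ASNS for asparagine. Every probe set of the deposited value table whose single annotated symbol was one of these names was taken, 20 probe sets in all. The brightest of a gene's probe sets, by mean over all 9 arrays, stood for the gene, and the others served as a check. Of the 10 genes, 8 had a mean log2 expression of at least 5 and were tested among 12402 genes, out of 19775 genes named on the array. SHMT1 (mean 4.896) and MTHFD1L (mean 3.85) were below that level and are given as values.

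The cells were MiaPaCa2, an established line from a human pancreatic carcinoma, grown to 70% confluence and given medium from pancreatic stellate cells, the fibroblast-like cells of pancreatic tumour stroma that the labels call naive. There was 1 array for each exposure of 1, 2, 3, 4, 5, 6, 7 and 24 h, and 1 control array at 24 h. The control is named as such in its description, while its title repeats the treatment wording of the other arrays, and the labels do not say what those cells were given. No group was replicated, and the labels do not settle whether cells were harvested in turn or together, so hours of exposure and time in culture cannot be told apart. The carcinoma line was checked by its keratins: KRT8, KRT18, KRT19 and KRT7 had means of 11.08, 13.45, 10.21 and 6.02. None of the 5 measured epithelial and line markers passed the test against the control. EPCAM (mean 2.60) and CDH1 (mean 3.50) were below the expression minimum, and VIM was at 13.95.

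Serine is made from a glycolytic intermediate in a chain of oxidation, transamination and dephosphorylation, and its conversion to glycine loads a carbon unit onto tetrahydrofolate for the synthesis of purines and thymidylate. Proline is built from glutamate, and asparagine from aspartate with glutamine as the nitrogen donor. Many genes of these pathways are known targets of ATF4, the transcription factor that cells translate when amino acids are short or the endoplasmic reticulum is stressed, and pancreatic carcinoma cells often depend on such supply in nutrient-poor stroma.

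ASNS carried the largest difference of these genes, and its promoter is shown first because it holds the best-known amino acid response sequence of the group. PSAT1 and ALDH18A1 are set beside it as a gene that passed the test without a match and a gene that did not pass with a match to another motif, and MTHFD1L as the gene with both motifs. The letters TGATGNAA, the core shared by composite sites of C/EBP and ATF proteins, and CACGTG, the E-box, were searched on both strands from 250 bases before to 50 bases after each annotated start, and the matches are in capitals. The sequences are RefSeq's, on GRCh38.p14, and run 5′ to 3′ on the strand of the gene.
ASNS, chr7:97872409-97872508, minus strand, the 100 bases before the start: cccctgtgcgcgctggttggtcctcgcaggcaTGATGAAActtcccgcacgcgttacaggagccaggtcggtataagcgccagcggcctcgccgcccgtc
PSAT1, chr9:78297025-78297124, plus strand, the 100 bases before the start: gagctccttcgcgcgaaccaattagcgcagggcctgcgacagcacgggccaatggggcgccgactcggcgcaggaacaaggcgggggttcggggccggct
MTHFD1L, chr6:150866326-150866385, plus strand, 60 bases from position -160: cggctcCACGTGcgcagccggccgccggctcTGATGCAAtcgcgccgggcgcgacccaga
ALDH18A1, chr10:95656812-95656871, minus strand, 60 bases from position -160: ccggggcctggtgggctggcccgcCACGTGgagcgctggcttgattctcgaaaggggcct

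Promoters were found for 7 of the 10 genes, with 11 annotated starts. In ASNS the composite core lay at -68 to -61 of 1 of its 2 starts. MTHFD1L held both motifs at 3 of its 4 starts, in the same bases each time, and ALDH18A1 held the E-box at -136 to -131. PHGDH, PSAT1, SHMT1 and MTHFD2 had no match in this window. Over 35116 promoters of the table, 3.62% held the composite core and 7.26% the E-box. The 2 motifs do not overlap in these sequences. A match is a run of letters, and binding was not measured.

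Values below are log2 expression, and differences are differences of log2 expression with the fold beside them. In the test (limma), a line was drawn through the 7 hourly values of a gene. The scatter about it, pulled by limma toward that typical of all genes, served as the error of every array, the lone control included. A gene passed when its p-value, adjusted over 12402 genes, was under 0.05. Levels of different genes are not compared, because each probe set has its own brightness.

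The first question was whether these genes differed between exposed cells and the control. ASNS, PYCR1 and PSAT1 were higher in the exposed arrays, by 1.92-fold, 1.35-fold and 1.27-fold in the mean of 1 to 7 h. The other 5 tested genes did not pass: SHMT2 lay above the control on every exposed array, PHGDH lay below it on every exposed array, and PSPH, MTHFD2 and ALDH18A1 lay on both sides or level with it. The group thus did not move as a block, and each of the serine and proline pathways held genes that passed and genes that did not. Of the 8 tested genes, 3 passed as higher, where 5.85% of all 12402 genes did, and 0 passed as lower, where 8.02% of all genes did. The median difference of the 8 genes was 0.15, and that of all tested genes was -0.01.

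ASNS, asparagine synthetase, makes asparagine from aspartate and glutamine. Its log2 expression was 10.62, 10.50, 10.64, 10.35, 10.28, 10.41 and 10.42 from 1 to 7 h, 10.45 at 24 h and 9.52 in the control. The control was the lowest array by 0.76, and the exposed arrays did not reach down to it. The mean of 1 to 7 h exceeded the control by 0.94 ± 0.11 (SE; 95% confidence interval 0.69 to 1.19; limma adjusted p = 0.00158). In the order of all 12402 differences, from the highest, ASNS was number 41. The distance was present in the first array after exposure, at 1.10 after 1 h, and ranged from 0.76 at 5 h to 1.12 at 3 h. In all 7 hourly arrays ASNS was at least 1.5-fold above the control, as was the case for 0.548% of all genes and for no other gene of this group. Among the exposed arrays the 1 h and 3 h arrays were highest, and the gap between these and the next array, 0.11, was the only one above the residual scatter of 0.11, by a small margin. The second ASNS probe set was dim (mean 3.09) and differed by -0.10. ASNS therefore rests on 1 probe set.

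**Figure D1:**
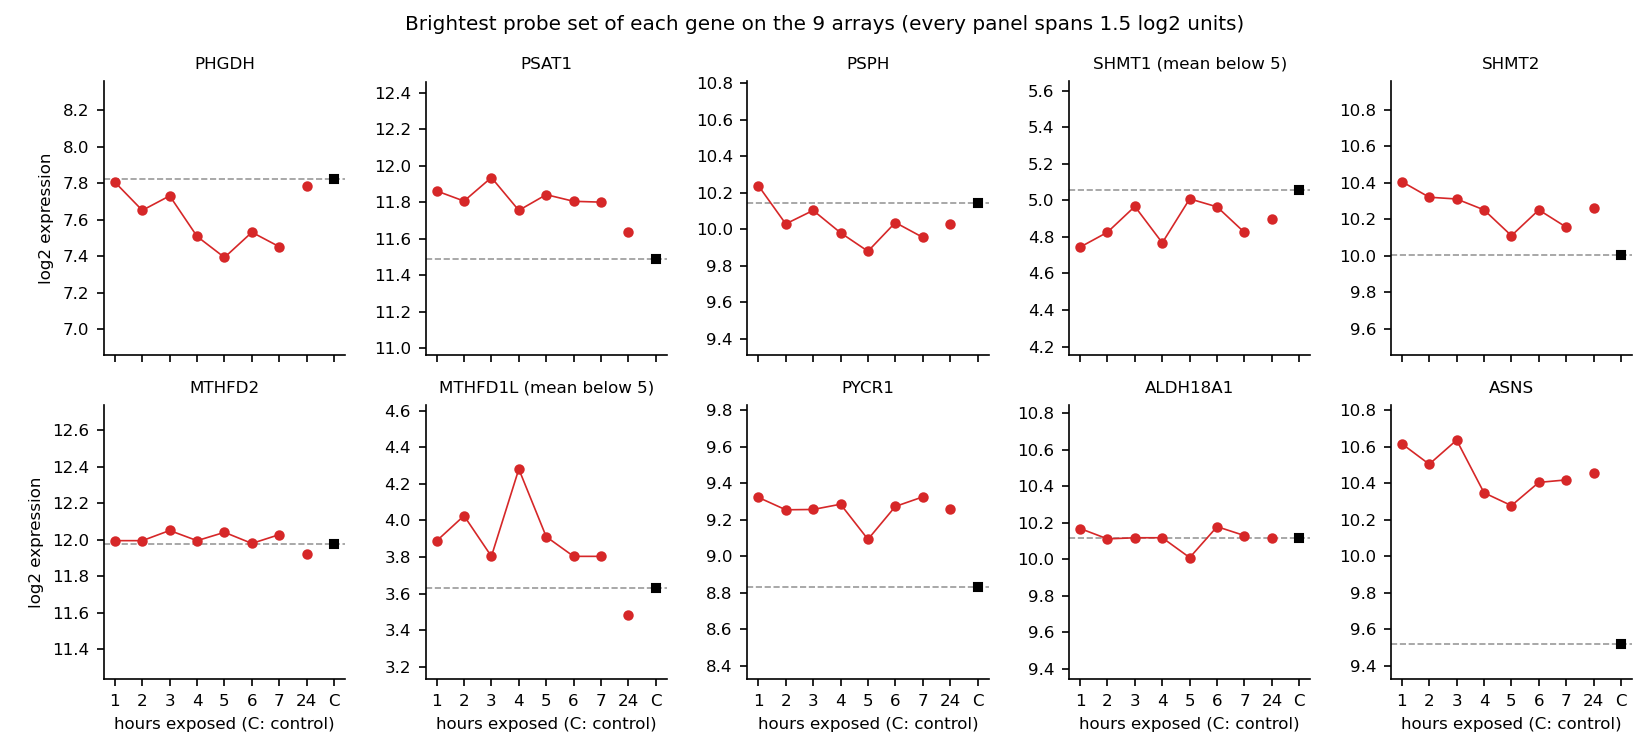
Log2 expression (vertical axis) of the brightest probe set of each of the 10 genes on the 9 arrays, against hours of exposure. Red points are exposed arrays, joined from 1 to 7 h, the black square and dashed line are the control array (C), each panel spans 1.5 log2 units, and each point is 1 array. In the ASNS panel all 8 exposed arrays lie between 10.28 and 10.64, above the control at 9.52, while in the MTHFD2 and ALDH18A1 panels the control lies among the exposed arrays.

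PYCR1 and ALDH18A1 sit at opposite ends of proline synthesis. PYCR1, the mitochondrial pyrroline-5-carboxylate reductase that completes proline, was at 9.32, 9.25, 9.26, 9.28, 9.09, 9.27 and 9.33 from 1 to 7 h, at 9.26 at 24 h and at 8.83 in the control. All 8 exposed arrays were above the control, 7 of them between 9.25 and 9.33, with the 5 h array lower. The difference of the hourly mean was 0.43 ± 0.09 (95% confidence interval 0.22 to 0.64; limma adjusted p = 0.0202). ALDH18A1, the synthase of the first committed steps from glutamate, did not show this. Its values were 10.17, 10.11, 10.12, 10.12, 10.01, 10.18 and 10.13 over the 7 h, 10.12 at 24 h and 10.12 in the control. The control was level with 3 exposed arrays, 3 were above it and 2 below. The difference was 0.00 ± 0.08 with an interval of -0.18 to 0.18 (adjusted p = 0.996), and its second probe set gave -0.01. The interval is compatible with changes of up to that size in either direction.

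The 3 enzymes of serine synthesis differed in sign. PHGDH, the dehydrogenase that commits 3-phosphoglycerate to serine, was at 7.81, 7.65, 7.73, 7.51, 7.39, 7.53 and 7.45 from 1 to 7 h, at 7.79 at 24 h and at 7.82 in the control. No exposed array exceeded the control, but the 1 h and 24 h arrays were within 0.04 of it, and the lowest values came from 4 to 7 h. The hourly mean differed by -0.24 ± 0.10 (95% confidence interval -0.46 to -0.02; unadjusted p = 0.0367), which did not pass after adjustment (limma adjusted p = 0.136).

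PSAT1, the aminotransferase that follows PHGDH and takes its amino group from glutamate, was at 11.86, 11.81, 11.94, 11.76, 11.84, 11.81 and 11.80 from 1 to 7 h, at 11.64 at 24 h and at 11.49 in the control. The hourly arrays formed a narrow band above both 24 h arrays, and the exposed 24 h array lay between the band and the control. The difference of the hourly mean was 0.34 ± 0.08 (95% confidence interval 0.16 to 0.52; limma adjusted p = 0.0245). Its second probe set differed by 0.57 ± 0.12 (adjusted p = 0.0214) in a fit of the 22504 probe sets with 1 symbol and a mean of at least 5. This was an extra fit chosen after seeing the data.

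PSPH, the phosphatase that releases serine, was at 10.24, 10.03, 10.10, 9.98, 9.88, 10.04 and 9.96 from 1 to 7 h, at 10.03 at 24 h and at 10.15 in the control. Only the 1 h array was above the control, and the difference of -0.11 ± 0.10 did not pass (limma adjusted p = 0.475). The 3 PSPH probe sets disagreed in size. The second ranged from 6.32 to 6.62 on the hourly arrays, and was 6.54 at 24 h and 7.38 in the control. It differed by -0.94 ± 0.11 (limma adjusted p = 0.00271 in the extra fit of probe sets). The third differed by -0.24 ± 0.24 (adjusted p = 0.577). All 3 were negative, but only the second passed. It is of the class with suffix x, whose probes can match other transcripts too, and the size of any change in PSPH is thus not settled by these arrays.

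**Figure D2:**
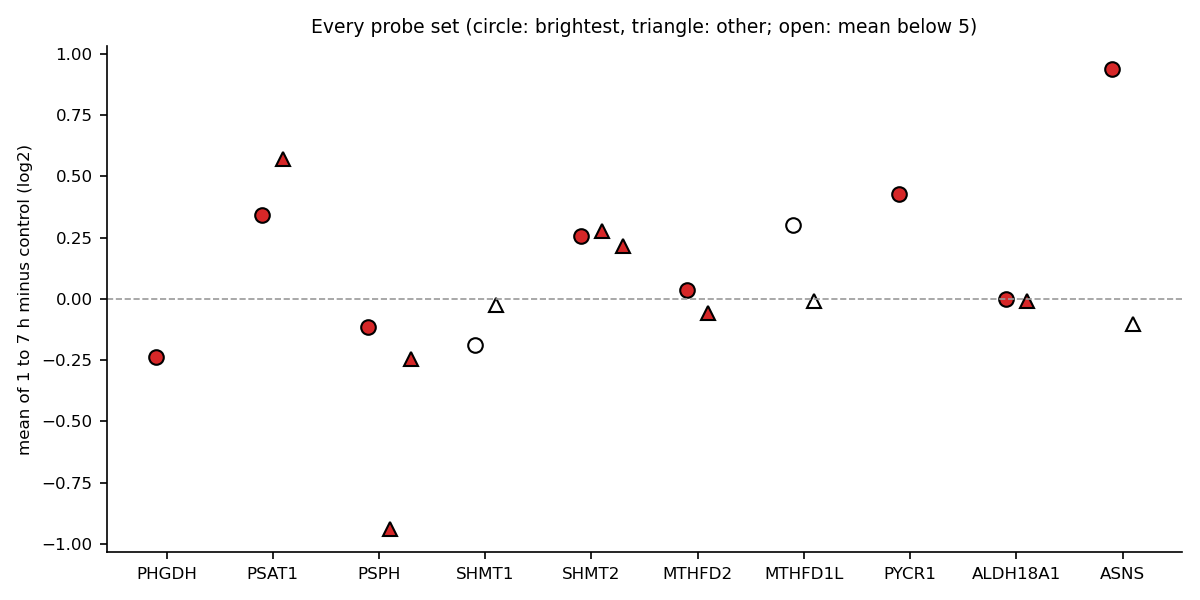
Difference in log2 expression between the mean of 1 to 7 h and the control (vertical axis) for each of the 20 probe sets, by gene. Circles are the brightest probe set of a gene, triangles its other probe sets, and open symbols have a mean below 5. Probe sets lie close together for SHMT2 (0.21 to 0.28) and ALDH18A1 (-0.01 to 0.00), and apart for PSPH (-0.94 to -0.11).

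SHMT2 and SHMT1 convert serine to glycine in mitochondria and cytosol. SHMT2 was at 10.41, 10.32, 10.31, 10.25, 10.11, 10.25 and 10.16 from 1 to 7 h, at 10.26 at 24 h and at 10.004 in the control. All 8 exposed arrays were above the control, the nearest being the 5 h array, 0.11 above it. The difference of 0.26 ± 0.08 (1.19-fold; 95% confidence interval 0.07 to 0.44) did not pass (limma adjusted p = 0.066; unadjusted p = 0.0113). Without the 5 h array the difference was 0.28 and passed (adjusted p = 0.0171). Its other probe sets gave 0.28 and 0.21 and did not pass (limma adjusted p = 0.326 and 0.327). In both of these the 5 h array was below the control and the other 7 exposed arrays were above it. SHMT1 ranged from 4.74 to 5.01 on the hourly arrays, was 4.897 at 24 h and 5.06 in the control. Every exposed array was below the control for SHMT1 in this probe set, by 0.19 in the hourly mean, at a brightness near the minimum. With no expression filter it did not pass (limma adjusted p = 0.345). The other SHMT1 probe set (mean 3.08) differed by -0.02, with 3 exposed arrays above the control and 4 below.

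MTHFD2 and MTHFD1L carry the mitochondrial folate units onward to formate, the form that leaves for the cytosol. MTHFD2, the dehydrogenase and cyclohydrolase, was within 11.98 and 12.05 on the 7 hourly arrays, at 11.92 at 24 h and at 11.98 in the control. Its residual scatter of 0.03 was the smallest of the 8 genes, and the control lay just under the hourly arrays. The difference was 0.04 ± 0.07 with an interval of -0.12 to 0.19 (limma adjusted p = 0.802), and its sign was negative after another quantile normalization (-0.006). MTHFD1L, the formate-producing synthetase, ranged from 3.80 to 4.28 over the hours, and was 3.48 at 24 h and 3.63 in the control. These are values near the floor of the array, and with no expression filter the hourly difference of 0.30 did not pass (limma adjusted p = 0.302). The other MTHFD1L probe set (mean 3.16) differed by -0.007. For SHMT1 and MTHFD1L 2 further probe sets each, and for PHGDH 1, name several genes and were not used.

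**Figure D3:**
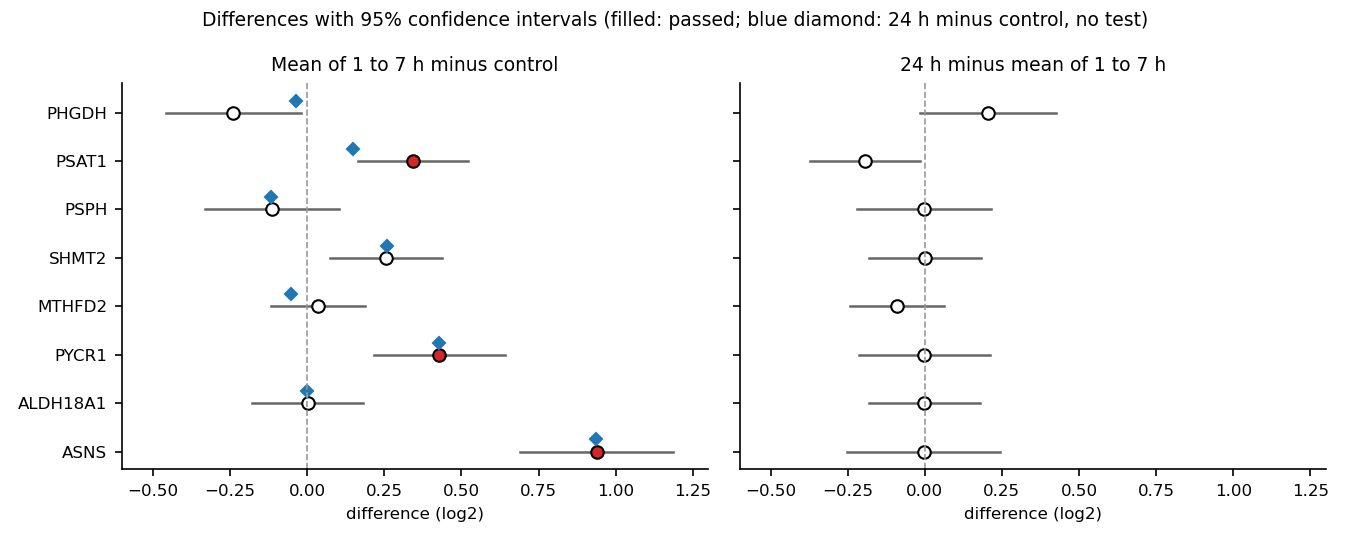
Differences in log2 expression (horizontal axis) of the 8 tested genes, with the hourly mean against the control on the left and the 24 h array against the hourly mean on the right. Circles carry 95% confidence intervals from limma, filled circles passed at an adjusted p of 0.05, and blue diamonds are the 24 h array minus the control, which has no test. ASNS, PYCR1 and PSAT1 are filled on the left, and no gene is filled on the right.

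All of these differences are measured against a single control array. By the brightest probe sets, every exposed array was above the control in 4 of the 8 genes (ASNS, PSAT1, SHMT2 and PYCR1), as in 21% of all genes. In 1 gene, PHGDH, every exposed array was below it, as in 24.1% of all genes. The control and the 5 h array stood apart across probe sets: each had a median correlation with the other arrays of 0.991, and the remaining 7 arrays had 0.996 or more. Array medians lay between 4.92 and 4.97. After another quantile normalization 1179 of 2083 genes that passed were higher in the exposed arrays, where with the deposited values 726 of 1721 were. ASNS, PYCR1 and PSAT1 passed as higher under both scalings.

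The second question was whether the difference was still there at 24 h, the labelled time of the control. With 1 array on each side there is no replicate check and no test. ASNS was 0.94 above the control at 24 h (1.91-fold), close to its hourly mean. It was the only one of the 8 genes at least 1.5-fold higher, where 3.15% of all genes were, and 0 of the 8, by their brightest probe sets, were at least 1.5-fold lower, where 3.43% of all genes were. PYCR1 was 0.43 above the control and SHMT2 0.26. PSAT1 was 0.15 above it, less than on any hourly array. PHGDH was -0.04, MTHFD2 -0.05 and ALDH18A1 0.00 from it. PSPH was -0.12 from it in its brightest probe set and -0.85 in its second, so its level against the control at 24 h is not settled.

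The third question was whether the level at 24 h differed from that of the first hours. None of the 8 genes passed, and of all genes 1 did (0.00806%). The unadjusted p was under 0.05 for 1 of the 8 genes and for 1946 genes in all. That gene was PSAT1, with a difference of -0.19 ± 0.08 (95% confidence interval -0.37 to -0.01; unadjusted p = 0.0374; limma adjusted p = 0.287). PHGDH had the largest positive difference, 0.20 ± 0.10 (adjusted p = 0.354), since its 24 h value was near that of 1 h. MTHFD2 was at -0.09 ± 0.07. For ASNS, PSPH, SHMT2, PYCR1 and ALDH18A1 the estimates were between -0.003 and 0.002, with intervals that for ASNS ran from -0.25 to 0.24. With limma's robust fit 11 genes passed and with array weights 135, again with none of the 8 among them.

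The fourth question was whether the genes changed from hour to hour between 1 and 7 h. No gene passed for the slope, 0 of the 8 and 0% of all genes in limma, and the unadjusted p was under 0.05 for 2 of the 8 and for 1944 genes in all. These 2 were PHGDH, at -0.059 ± 0.017 per h (unadjusted p = 0.00804; adjusted p = 0.176), and SHMT2, at -0.039 ± 0.014 per h (unadjusted p = 0.023; adjusted p = 0.247). ASNS (-0.041 per h) and PSPH (-0.038 per h) had slopes of similar size to that of SHMT2 and did not reach an unadjusted p of 0.05. The slopes of PSAT1, PYCR1 and ALDH18A1 were between -0.010 and -0.003 per h, and that of MTHFD2 was 0.002 per h. Of the 8 slopes 7 were negative, and their median was -0.0239, against -0.0055 for all genes. With limma's robust fit 25 genes passed for the slope and with array weights 5, in each case with none of the 8.

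The 5 h array weighs on these courses. It gave the lowest of the 7 hourly values in 6 of the 8 genes (ASNS, PHGDH, PSPH, SHMT2, PYCR1 and ALDH18A1), where it did so in 38.7% of all genes. The exceptions were PSAT1, lowest at 4 h, and MTHFD2, lowest at 6 h. The highest hourly value came at 1 h for PHGDH, PSPH and SHMT2 and at 3 h for ASNS, PSAT1 and MTHFD2. Over all tested genes, the 5 h array had the widest scatter about the fitted lines (SD 0.165, with 0.079 to 0.102 on the other hourly arrays). Its ACTB probe sets differed most between the 3′ and 5′ ends of the transcript (2.24, against 1.59 to 1.97 on the other arrays), a sign of RNA or labelling quality. The part of array quality in the low 5 h values was not tested. Without this array ASNS differed from the control by 0.97, PYCR1 by 0.46, PSAT1 by 0.34 and PHGDH by -0.21 in the hourly mean.

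Genes that use the products of these enzymes were followed as 3 lists. Among 9 genes of glycine and serine use, 5 were higher in the hourly arrays than in the control, 1 was lower and 3 did not pass, with a median of 0.26 against -0.01 for all genes. Of all tested genes 5.85% passed as higher and 8.02% as lower. CTH (1.08 ± 0.14) and CBS (0.39 ± 0.07), the enzymes that join serine to homocysteine and release cysteine, were both higher, with limma adjusted p-values of 0.00225 and 0.0118. SPTLC2, a subunit of the palmitoyltransferase that starts sphingolipids from serine, was higher by 0.61 ± 0.09 (adjusted p = 0.00534). Of the 4 proteins of the glycine cleavage system, DLD (0.36 ± 0.08, adjusted p = 0.0242) and GCSH (0.26 ± 0.07, adjusted p = 0.0462) were higher, while GLDC, the glycine decarboxylase, was lower by -0.93 ± 0.19 (adjusted p = 0.0169), and AMT, the aminomethyltransferase, did not pass (0.01 ± 0.08, adjusted p = 0.956). GLDC was at 7.66 in the control and between 6.29 and 6.97 from 1 to 7 h.

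Of 20 listed folate genes, 17 were bright enough, and 14 of these did not pass. The shares of all tested genes that passed were 5.85% as higher and 8.02% as lower. GART, an enzyme of purine synthesis that takes formyl groups from folate, was higher by 0.23 ± 0.06 (limma adjusted p = 0.0463). GGH, which trims the glutamate tail of folates, was lower by -0.75 ± 0.10 (adjusted p = 0.00349), and TYMS, thymidylate synthase, by -0.33 ± 0.08 (adjusted p = 0.033). The list's median was 0.03. Of 12 listed genes of proline, glutamate and aspartate metabolism, 8 were bright enough, 0 passed as higher and 2 as lower, with a median of 0.02. They were ASRGL1, which hydrolyses asparagine (-0.49 ± 0.10, adjusted p = 0.0138), and GOT1, the cytosolic aspartate aminotransferase (-0.35 ± 0.07, adjusted p = 0.014). ASNS and ASRGL1, the enzymes that make and break down asparagine, thus stood on opposite sides of the control.

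Of 14 listed regulators and targets of the integrated stress response, 12 were bright enough. ATF4 was higher by 0.88 ± 0.07 (limma adjusted p = 0.000643), the tRNA exporter XPOT by 0.52 ± 0.07 (adjusted p = 0.00361), the pseudokinase TRIB3 by 0.51 ± 0.11 (adjusted p = 0.0183) and the glutathione-degrading CHAC1 by 0.36 ± 0.10 (adjusted p = 0.0462). The other 8 did not pass and 0 passed as lower, where 5.85% of all tested genes passed as higher and 8.02% as lower. Of the 12 differences 8 were positive, and those of SESN2 (-0.36), ATF5 (-0.15), DDIT4 (-0.09) and DDIT3 (-0.05) were negative. The median of this list was 0.15. ATF4 was at 10.13 in the control, between 10.94 and 11.06 over the 7 h and at 10.99 at 24 h, so that all 8 exposed arrays were above the control, as in 21% of all genes.

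**Figure D4:**
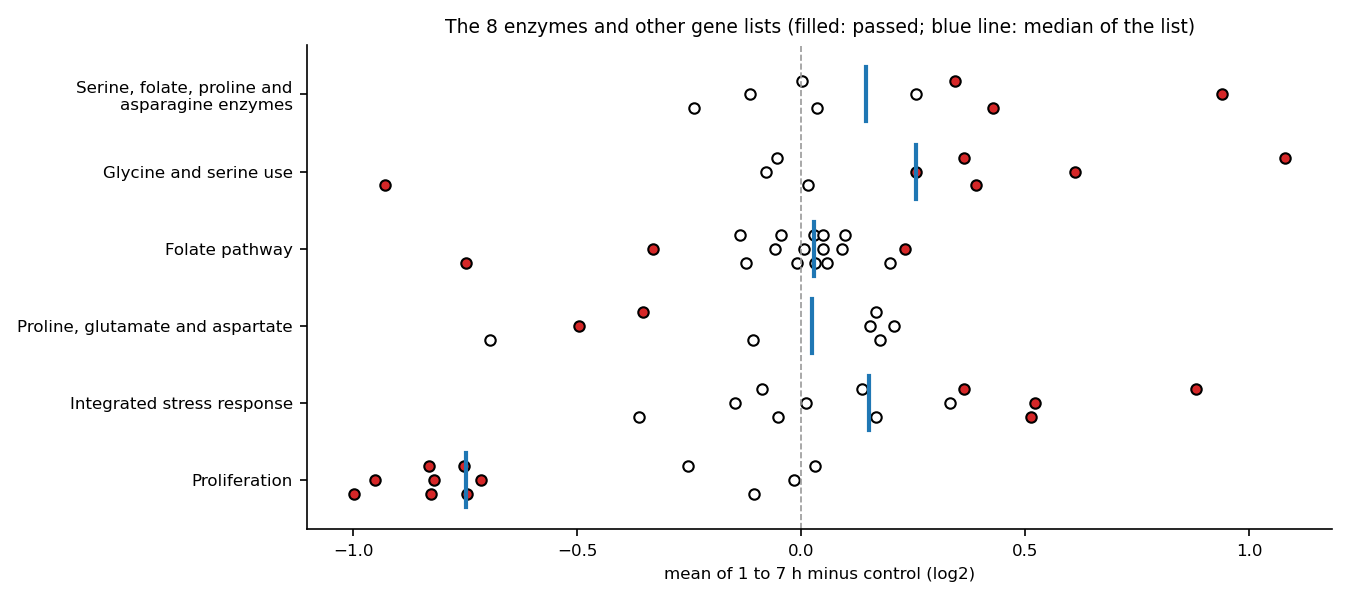
Difference in log2 expression between the mean of 1 to 7 h and the control (horizontal axis) for each tested gene of the 8 enzymes and of 5 other gene lists. Filled points passed limma's test at an adjusted p of 0.05, and blue lines are medians. The medians run from -0.75 for the proliferation genes to 0.26 for glycine and serine use, with the enzymes at 0.15.

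Other groups moved against the same control, where 5.85% of all tested genes passed as higher and 8.02% as lower. Of 12 proliferation genes 8 were lower in the hourly arrays and 4 did not pass, with a median of -0.75. The lower genes included AURKA (-0.998), PLK1 (-0.95), MKI67 (-0.83), CCNA2 (-0.83), BUB1 (-0.82) and TOP2A (-0.75). The 4 that did not pass were the DNA replication genes of the list, MCM2 (-0.02), MCM5 (0.03), PCNA (-0.10) and RRM2 (-0.25). Of 8 measured stellate cell and fibroblast markers 4 were higher, namely COL3A1 (0.94), COL6A3 (0.94), COL1A2 (0.68) and RGS5 (0.34), and 4 did not pass, with ACTA2 at -0.40, COL1A1 at 0.09, THY1 at 0.05 and DCN at 0.41. The sum of the list on the linear scale, in which the bright RGS5 and COL1A2 weigh most, was 7410 to 8270 on the hourly arrays, 8740 at 24 h and 5790 in the control, with LUM (mean 2.35) and PDGFRB (mean 3.98) below the expression minimum. Of 2 measured leukocyte markers LYZ was higher, by 2.38, and CD14 did not pass, while the leukocyte genes PTPRC (mean 3.64) and CD3E (mean 4.80) were below the minimum, and the 1 measured endothelial marker did not pass. The part of cell growth or of other cells in the differences of ASNS, PYCR1 and PSAT1 was not tested. In a bulk sample, fewer cells of a kind and less RNA per cell cannot be told apart.

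The genes whose pattern over the 9 arrays was most like that of ASNS were CLPX (Pearson r = 0.983), CTH (0.980), STMN3 (0.979), PAQR8 (0.978) and CLIC4 (0.977). These correlations lean on the control, which is far from the other arrays in each of them: with the control left out they were 0.80 to 0.89. For the mean of the 8 enzymes the nearest genes were ACBD5 (0.980), SEC23A (0.971), SNX13 (0.962), SFRP1 (0.956) and LRRC57 (0.949), with values of 0.899 to 0.972 without the control. The coefficients are descriptions over 9 arrays, which share the scaling and the 5 h array.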

How the data were processed

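The authors deposited log2 expression values of 54675 probe sets, made with RMA per the submitters' processing notes. RMA subtracts background, brings arrays to 1 distribution and joins the probes of a set; the version and chip definition were not given in the sources used here. A second deposited table of 6370 probe sets held the same log2 values, with an unstated filter; of the genes described it holds PHGDH alone. Platform annotation gave 41097 probe sets 1 symbol (41043 matched by Entrez ID to the GRCh38.p14 gene table), 1801 several and 11777 none; the last 2 kinds were left out. Arrays carry no read depth, and their number limits precision.

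Genes were fitted with limma 3.58.1 in R 4.3.3 (lmFit, eBayes, two-sided, Benjamini-Hochberg over 12402 genes), with the centred hour and indicators for the 24 h and control arrays. The fit had 5 residual and 3.72 prior degrees of freedom. P-values measure scatter between single arrays, which may be technical. The test was run on simulated data in which the control and 24 h arrays had the scatter of the hourly arrays, so that assumption was not checked. For each size of difference 100 genes were changed, where 1721 passed against the control in the data. The shares found may thus differ from those in the data. The test found 49% of simulated differences of 0.5 from the control and 86% of those of 1.0. For 24 h against the hours it found 48% and 96%. A gene that did not pass can thus still differ. All 10 genes are named, list genes that passed are named up to 6 per list by size, and the 5 nearest genes by Pearson r. Unpassed markers and list genes with values, ASRGL1 with ASNS and the 5 h results were singled out after values were seen. Genes, lists, motifs and tests were chosen with earlier results of these data known. Alternatives were robust estimation, array weights, other filters, probe set rules and scalings, other time terms, the filtered table, a 1.5-fold threshold and leaving out each hourly array. Python 3.11.15, pandas 2.3.3, numpy 2.4.6 and matplotlib 3.10.9 made tables and figures.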

Additional observations from a re-analysis of the deposited data

How the results depend on the processing

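ASNS, PYCR1 and PSAT1 kept their direction and passed against the control under every alternative fit that held them, though only ASNS met a 1.5-fold threshold. The filtered table held none of them, and the dim second ASNS probe set (-0.10) was not fitted by itself. Their limma adjusted p-values were 0.000209 to 0.0298 for ASNS, 0.00271 to 0.0441 for PYCR1 and 0.00388 to 0.0446 for PSAT1. The ASNS difference was 0.42 with the mean over probe sets, which joins its dim one. SHMT2 passed with limma's robust fit (adjusted p = 0.0346), array weights (0.0218), a minimum of 7 (0.0412), another quantile normalization (0.0279) and without the 5 h array. PSPH passed with the mean over probe sets (-0.43, adjusted p = 0.0457). The number of the 8 enzymes that passed was 3 to 4 when 1 hourly array was left out, 1 with that threshold and 0 in the authors' filtered table, where 1 was tested. For the slope and 24 h it was 0 under all alternatives.

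Over all genes, 1721 passed against the control, 2741 with array weights, 483 with a 1.5-fold threshold, 151 in the filtered table (2169 tested), and 1080 (without 3 h) to 2889 (without 5 h) with 1 array left out; without 4 h it was 1119. For the slope 25 passed with the robust fit, 5 with array weights, 18 with a minimum of 7, 74 with log2 of the hour, and 0 to 73 with 1 array left out (73 without 5 h). For 24 h against the hours 11 passed with the robust fit, 135 with array weights, 2 with log2 of the hour, 0 with no filter, a minimum of 7, the mean over probe sets, the median shift or the filtered table, and 0 to 9 with 1 array left out (9 without 1 h or 5 h). With the next probe set of each gene, 0 enzymes were at least 1.5-fold above the control at 24 h or on all hourly arrays, since that of ASNS is dim, and 1, PSPH, was at least 1.5-fold below it in both (-0.85 at 24 h). Other causes were not tested.

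Some estimates changed sign without passing. Against the control these were MTHFD2 (-0.0108 with the mean over probe sets, -0.0060 with another quantile normalization, -0.0572 in its second probe set) and ALDH18A1 (-0.0039 with the mean over probe sets, -0.0054 with the median shift, -0.0089 in its second probe set, -0.0088 to 0.0195 with 1 array left out). For the slope they were MTHFD2 (-0.0076 with the mean over probe sets, -0.0012 with the median shift, -0.0174 in its second probe set, 0.0000 to 0.0058 with 1 array left out), PYCR1 (0.0001 with array weights, 0.0005 with another quantile normalization, -0.0201 to 0.0060 with 1 left out), ALDH18A1 (0.0000 with array weights, -0.0098 to 0.0047 with 1 left out) and PSPH (0.0089 in its second probe set). For 24 h against the hours they were ASNS (0.0766 with the mean over probe sets, 0.0041 with another quantile normalization, 0.0010 with the median shift, -0.0335 to 0.0263 with 1 left out), PSPH (0.0750 with the mean over probe sets, 0.0017 with the median shift, 0.0915 and 0.1363 in its other probe sets, -0.0281 to 0.0318 with 1 left out), SHMT2 (-0.0062 with array weights, -0.0970 in its dimmest probe set, -0.0228 to 0.0265 with 1 left out), PYCR1 (0.0022 with the median shift, -0.0298 to 0.0090 with 1 left out) and ALDH18A1 (0.0032 with the median shift, -0.0195 to 0.0088 with 1 left out). No paired analysis was possible because each group holds 1 array. The error of the lone control was taken from the hourly arrays, which these data cannot check. Dim probe sets limit what can be said of SHMT1 and MTHFD1L.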
